A study of Mus musculus with 18 samples.

Results

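The 36 genes described here act in mitosis: 7 mitotic kinases, 3 cyclins or Cdk-binding proteins, 7 kinetochore genes, 5 spindle motors, 4 spindle assembly factors, 4 cytokinesis genes, 2 subunits of the chromosomal passenger complex, 2 genes of the anaphase-promoting complex and 2 chromosome-associated genes. A member was read from the probe sets that carry its symbol alone, taking the brightest by mean over all 18 arrays, and all 36 were measured among 22180 genes. The cells were C2C12, mouse myoblasts kept as a line, which fuse into myotubes with many nuclei once serum is lowered. Myoblasts grown in 20% fetal bovine serum were moved to 2% horse serum, and 36 h later all groups received a lentivirus with a short hairpin RNA (shRNA); myotubes were collected 48 h after infection. The groups, of 6 arrays each, carried an shRNA against Mef2c, a transcription factor of the muscle programme, an shRNA against Nup210, a membrane protein of the nuclear pore, or a scrambled control shRNA. Whether the 6 arrays stand for 6 separate cultures is not in the labels; the p-values therefore measure a spread between samples that may be technical.

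During mitosis, cyclin-dependent kinase and its cyclins start chromosome condensation and spindle formation, kinetochores tie chromosomes to spindle microtubules, and checkpoint kinases hold back the anaphase-promoting complex until every chromosome is attached. Kinesin motors and bundling proteins then build the midzone at which the cell divides. Transcripts of these genes accumulate late in the cell cycle, and myoblasts leave the cycle when they differentiate, while some cells of a culture stay mononucleate. In bulk RNA, fewer cells of a type and less RNA per cell cannot be told apart.

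All 36 mitosis genes had lower means in Mef2c shRNA than in control shRNA myotubes, as had 43.4% of all genes, and 33 of the 36 passed the test (limma with 1 mean per group, Benjamini-Hochberg adjusted p under 0.05 over all genes), while 0 passed as higher. Over all genes tested, 6.42% were called lower and 4.34% higher in this comparison. The 33 called members differed by -0.97 to -0.27 on the log2 scale, so that their Mef2c shRNA levels were 51.2% to 82.9% of the control levels. The median difference of the 36 was -0.65, beside 0.02 over all genes. In 29 members the highest Mef2c shRNA array was below the lowest control array, a pattern that 4.77% of all genes showed. With Nup210 shRNA, 0 members were called in either direction against control shRNA, beside 5.11% of all genes called lower and 3.05% called higher; at an unadjusted limma p under 0.05, 1 member was lower and 0 were higher, beside 10.3% and 9.91% of all genes. No member had Nup210 shRNA arrays all below or all above the control arrays, as 3.71% and 1.92% of all genes had.

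**Figure D1:**
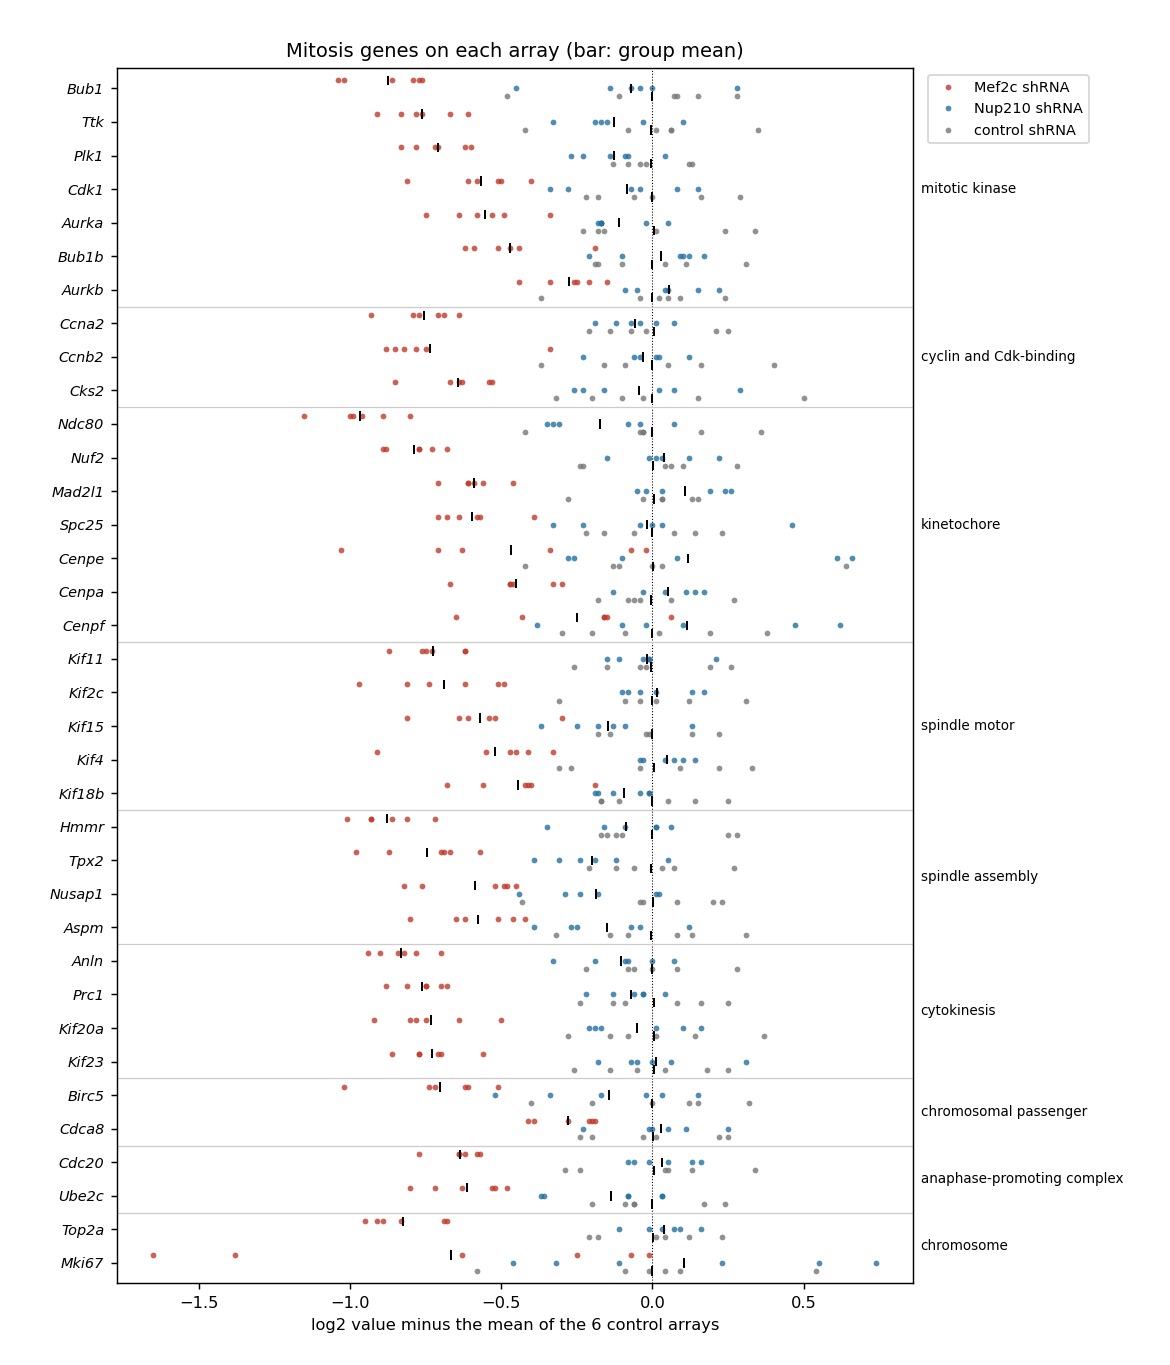
Values of the 36 mitosis genes on each array, as log2 value minus the mean of the 6 control arrays (horizontal axis), with genes grouped by role; each point is an array and each bar a group mean. The Mef2c shRNA points lie left of the control points without overlap in 29 genes, while the Nup210 shRNA and control points overlap in all 36; Mki67, Cenpe and Cenpf have the longest spreads.

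The targeted gene of the first group was low in its own arrays. Mef2c had a lowest, median and highest log2 value of 7.51, 7.97 and 8.08 in Mef2c shRNA arrays, against 10.1, 10.42 and 10.54 in control shRNA arrays (difference -2.48, limma adjusted p = 2.8e-11). Nup210 had 5.54, 5.63 and 5.79 in Nup210 shRNA arrays, against 5.57, 5.79 and 5.81 in control shRNA arrays (difference -0.10, adjusted p = 0.402). Its probe set lies near 5.47, the 95th percentile of 1390 olfactory and vomeronasal receptor genes taken as a guide to background, so these arrays check the Nup210 shRNA label poorly, and a direction drawn from them rests on the label. Array medians ran from 5.48 to 5.57, and arrays of a group correlated at 0.991 to 0.995 across genes. All 16 myotube markers were above the receptor guide, with array means of 11.3 to 11.41 in Mef2c shRNA, 11.3 to 11.42 in Nup210 shRNA and 11.41 to 11.5 in control shRNA arrays. Of 12 markers of undifferentiated or reserve myoblasts 11 exceeded the guide, with array means of 8.19 to 8.24 in Mef2c shRNA, 8.27 to 8.44 in Nup210 shRNA and 8.19 to 8.34 in control shRNA arrays. All 6 smooth muscle markers did, with means of 8.34 to 8.54 in Mef2c shRNA, 8.22 to 8.55 in Nup210 shRNA and 8.53 to 8.81 in control shRNA arrays. Of 5 macrophage markers 1 did, with means of 4.7 to 4.9 in Mef2c shRNA, 4.73 to 4.96 in Nup210 shRNA and 4.61 to 4.8 in control shRNA arrays. Of 7 adipocyte markers 4 did, with means of 5.89 to 5.98 in Mef2c shRNA, 5.65 to 5.8 in Nup210 shRNA and 5.55 to 5.73 in control shRNA arrays. The lowest adipocyte marker mean among Mef2c shRNA arrays was above the highest among control arrays. Of the 7 adipocyte markers 2 were called higher with Mef2c shRNA, beside 4.34% of all genes, and 0 lower. The 2 were Lpl, lipoprotein lipase, 0.93 higher (adjusted p = 8.57e-05), and Cebpa, an adipogenic transcription factor, 0.37 higher (adjusted p = 0.00602). Of the 6 smooth muscle markers 2 were lower with Mef2c shRNA, beside 6.42% of all genes. These were the actin-binding genes Tagln (-0.80, adjusted p = 0.000926) and Cnn1 (-0.61, adjusted p = 0.00631). With Nup210 shRNA 3 smooth muscle markers were lower, beside 5.11% of all genes. The part of these markers in the mitosis gene result was not tested.

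Because the members moved together with Mef2c shRNA, their promoters were read from RefSeq (mouse build GRCm38.p6, 250 bases before to 50 after the annotated start), which gave 32 of the 36; Aurkb, Ccna2, Tpx2 and Kif20a had no entry. Cell cycle promoters are known for the Y box, bound by the factor NF-Y, and for the cell cycle genes homology region (CHR), bound by complexes of the DREAM family. The stretches of the 6 members with the largest differences are given from 170 bases before the start, 5′ to 3′ on the gene's own strand (minus in all 6), at chr17:71526828-71527027, chr11:40733408-40733607, chr2:127831830-127832029, chr9:22389177-22389376, chr11:99024160-99024359 and chr1:169531435-169531634. Capitals mark each full match on either strand to CCAAT (Y box), TTTGAA (CHR) or TTTAAA (CHR variant).
Ndc80: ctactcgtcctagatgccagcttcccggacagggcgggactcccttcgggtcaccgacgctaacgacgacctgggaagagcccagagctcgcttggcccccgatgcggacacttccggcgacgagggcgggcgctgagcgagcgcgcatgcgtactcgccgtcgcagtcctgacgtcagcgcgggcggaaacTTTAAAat
Hmmr: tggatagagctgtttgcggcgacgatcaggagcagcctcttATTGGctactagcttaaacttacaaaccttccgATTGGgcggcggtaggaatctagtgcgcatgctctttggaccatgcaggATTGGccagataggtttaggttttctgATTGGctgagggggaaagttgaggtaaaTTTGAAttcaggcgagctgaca
Bub1: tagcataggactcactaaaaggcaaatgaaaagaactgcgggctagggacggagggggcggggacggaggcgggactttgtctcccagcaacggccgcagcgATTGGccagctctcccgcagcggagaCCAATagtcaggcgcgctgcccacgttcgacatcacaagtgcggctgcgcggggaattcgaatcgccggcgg
Anln: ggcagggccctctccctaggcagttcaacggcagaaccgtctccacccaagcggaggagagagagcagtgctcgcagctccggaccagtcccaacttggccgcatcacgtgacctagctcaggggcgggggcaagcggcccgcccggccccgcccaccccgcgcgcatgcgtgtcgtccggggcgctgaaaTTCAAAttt
Top2a: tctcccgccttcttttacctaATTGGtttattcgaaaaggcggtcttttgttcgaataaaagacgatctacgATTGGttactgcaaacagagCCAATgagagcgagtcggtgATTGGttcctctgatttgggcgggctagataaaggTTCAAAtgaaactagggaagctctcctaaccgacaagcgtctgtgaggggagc
Nuf2: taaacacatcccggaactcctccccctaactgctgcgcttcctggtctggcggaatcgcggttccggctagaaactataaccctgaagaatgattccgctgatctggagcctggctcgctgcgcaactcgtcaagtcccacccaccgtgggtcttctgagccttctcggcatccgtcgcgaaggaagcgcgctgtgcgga
Hmmr and Top2a each show 4 Y boxes and 1 CHR in these stretches, Bub1 shows 2 Y boxes, Anln 1 CHR, Ndc80 1 CHR variant, and Nuf2 none of the 3 motifs.

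Over the full windows, counting both strands and overlapping matches, the Y box was in 24 of 32 members (75%). Among 27025 genes with windows of the same length the share was 41.1%. A gene with several windows was counted if any of them matched. The CHR was in 25 members (78.1%, against 20.2% of those genes), and its variant in 9 (28.1%, against 14.9%). Both the Y box and the CHR were present in 21 members (65.6%, against 7.97%). A CHR within 50 bases of the start was present in 23 members (71.9%, against 5.72%). The median difference between Mef2c shRNA and control shRNA was -0.62 in members with and -0.70 in members without a Y box, -0.64 both with and without a CHR, -0.61 with and -0.69 without both motifs, and -0.61 with and -0.66 without a CHR near the start; no test between these members was run. A match is a description of these letters and not evidence of a bound site.

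**Figure D2:**
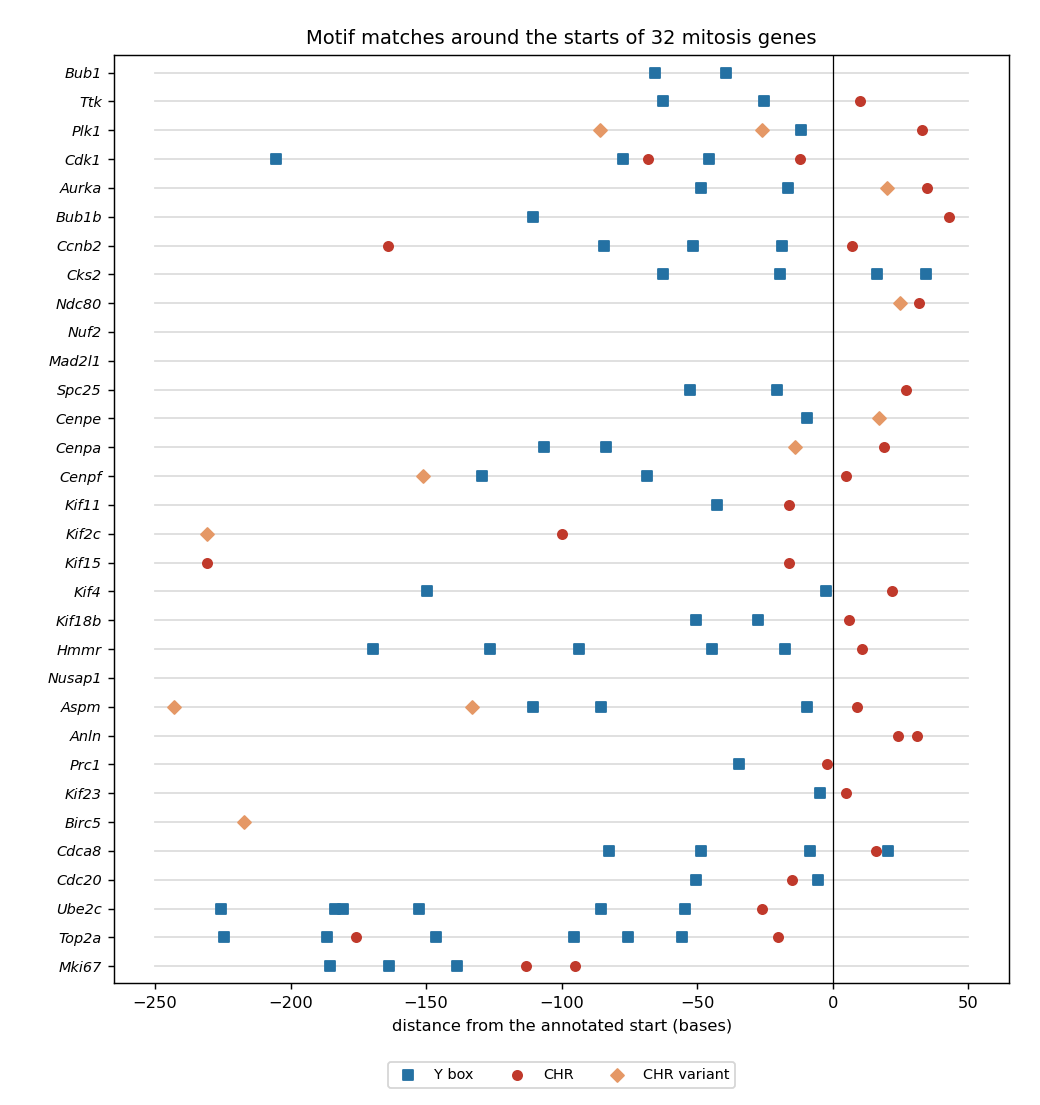
Positions of Y box, CHR and CHR variant matches (squares, circles and diamonds) in the RefSeq windows of 32 mitosis genes; the horizontal axis is the distance from the annotated start in bases, and grey lines span the window. Y boxes are mostly upstream of the start and 23 of the genes carry a CHR within 50 bases of it; Nuf2, Mad2l1 and Nusap1 show no match.

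Among the mitotic kinases, all 7 were lower with Mef2c shRNA than with control shRNA, by a median of 0.57 on the log2 scale. Bub1, a kinase of the spindle checkpoint, had a lowest, median and highest value of 5.7, 5.92 and 5.98 in Mef2c shRNA arrays, against 6.26, 6.82 and 7.02 in control arrays (difference -0.87 ± 0.12 SE, limma adjusted p = 7.32e-05, 54.7% of control). Plk1, a kinase of centrosome maturation and spindle formation, had 7.2, 7.32 and 7.43 in Mef2c shRNA arrays, against 7.9, 8 and 8.16 in control arrays (difference -0.70 ± 0.062 SE, adjusted p = 9.52e-07). The 6 Mef2c shRNA arrays lay below all 6 control arrays for both. Cdk1, the kinase that with its cyclins drives entry into mitosis, had 7.02, 7.28 and 7.43 in Mef2c shRNA arrays, against 7.61, 7.8 and 8.12 in control arrays (difference -0.57 ± 0.098 SE, adjusted p = 0.000738). Ttk, the kinase that starts the checkpoint signal, differed by -0.76, Aurka, a kinase of centrosomes and spindle poles, by -0.55, and Bub1b, the checkpoint pseudokinase, by -0.47. Aurkb, the kinase of the chromosomal passenger complex, had the smallest difference of the kinases, with 6.96, 7.15 and 7.25 in Mef2c shRNA arrays against 7.03, 7.43 and 7.64 in control arrays (difference -0.27 ± 0.082 SE, adjusted p = 0.041). Its groups overlapped. Its call did not hold in 14 of 30 alternative settings, with adjusted p-values there, among those at or above 0.05, of 0.0505 to 0.238. These include leaving out Nup210 shRNA array 6, any Mef2c shRNA array but 4, or any control array but 3.

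The cyclins and the Cdk-binding protein changed by similar amounts. Ccna2, the cyclin of S phase and mitotic entry, had 8.03, 8.22 and 8.32 in Mef2c shRNA arrays, against 8.75, 8.92 and 9.21 in control arrays (difference -0.76 ± 0.076 SE, adjusted p = 3.38e-06). Ccnb2, a B-type mitotic cyclin, differed by -0.74 ± 0.11 SE (adjusted p = 0.000214), and one of its Mef2c shRNA arrays reached the control range. Cks2, a small protein that binds Cdk and its substrates, differed by -0.64 ± 0.12 SE (adjusted p = 0.00129). Of 4 Cks2 probe sets, 3 held identical values, and the dimmer remaining one differed by -0.60 (adjusted p = 0.000139).

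Kinetochore genes gave the largest and the smallest differences of the 36. Ndc80, which names the complex that holds microtubule ends, had 6.69, 6.86 and 7.04 in Mef2c shRNA arrays, against 7.42, 7.81 and 8.2 in control arrays (difference -0.97 ± 0.11 SE, limma adjusted p = 8.74e-06, 51.2% of control). Nuf2, a subunit of the same complex, had 7.13, 7.25 and 7.34 in Mef2c shRNA arrays, against 7.78, 8.07 and 8.3 in control arrays (difference -0.79 ± 0.081 SE, adjusted p = 4.12e-06). Neither gene had overlapping groups. Spc25, which joins the complex to the inner kinetochore, differed by -0.59, Mad2l1, the checkpoint protein that inhibits Cdc20, by -0.60, and Cenpa, the centromeric histone variant, by -0.45, again with separate groups. Cenpe, a kinetochore kinesin, and Cenpf, a kinetochore and nuclear matrix protein, differed by -0.47 ± 0.21 SE (adjusted p = 0.18) and -0.25 ± 0.16 SE (adjusted p = 0.395) and were not called; their groups overlapped.

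All 5 spindle motors were lower, with a median of -0.57. Kif11, the motor that slides spindle poles apart, had 6.69, 6.82 and 6.94 in Mef2c shRNA arrays, against 7.3, 7.53 and 7.82 in control arrays (difference -0.72 ± 0.082 SE, adjusted p = 1.16e-05). Kif2c, a microtubule-depolymerising kinesin, differed by -0.69, Kif15, a motor that backs up Kif11, by -0.57, Kif4, a chromokinesin, by -0.52, and Kif18b, a kinesin of astral microtubule ends, by -0.44. The Mef2c shRNA arrays lay below all control arrays in the 5 motors. The spindle assembly factors had 4 of 4 called lower. Hmmr, a spindle pole protein that was also named as a hyaluronan receptor, had 5.61, 5.73 and 5.9 in Mef2c shRNA arrays, against 6.45, 6.51 and 6.9 in control arrays (difference -0.88 ± 0.088 SE, adjusted p = 3.55e-06). Tpx2, the activator of Aurka, differed by -0.74, Nusap1, a microtubule-bundling protein, by -0.59, and Aspm, a protein of spindle poles, by -0.57.

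Cytokinesis genes had 4 of 4 called lower, all between -0.83 and -0.73. Anln, the actin-binding scaffold of the cleavage furrow, had 7.58, 7.69 and 7.82 in Mef2c shRNA arrays, against 8.3, 8.49 and 8.8 in control arrays (difference -0.83 ± 0.077 SE, limma adjusted p = 1.64e-06). Prc1, which bundles midzone microtubules, had 7.63, 7.76 and 7.83 in Mef2c shRNA arrays, against 8.27, 8.5 and 8.76 in control arrays (difference -0.77 ± 0.073 SE, adjusted p = 2.07e-06). Their groups did not overlap. Kif20a, a midzone kinesin that carries the passenger complex, differed by -0.74, and Kif23, the motor of centralspindlin, by -0.73. Role medians were thus -0.75 for cytokinesis, -0.59 for kinetochore and -0.57 each for kinases and spindle motors, with ranges that overlapped; no test between roles was run. Counting Kif20a, Kif23 and Cenpe with the motors, a grouping chosen after the values were seen, gave 7 of 8 kinesins lower with a median of -0.63, 5 of 6 kinetochore genes with -0.60 and 2 of 2 cytokinesis genes.

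In the chromosomal passenger complex, Birc5, also called survivin, differed by -0.70 ± 0.13 SE (adjusted p = 0.00102), although its Mef2c shRNA mean of 5.38 was below the receptor guide of 5.47. Cdca8, also called borealin, had 5.92, 6.08 and 6.14 in Mef2c shRNA arrays, against 6.09, 6.32 and 6.58 in control arrays (difference -0.28 ± 0.088 SE, adjusted p = 0.048), with groups that overlapped. Its call did not hold in 17 of 30 alternatives, with adjusted p-values there, among those at or above 0.05, of 0.0528 to 0.297. These include leaving out any Mef2c shRNA array, Nup210 shRNA arrays 2, 3, 4 or 6, or control arrays 1, 2, 4 or 6, one at a time. Without control arrays 4 and 6, the difference was -0.17 for Cdca8 (adjusted p = 0.297) and -0.19 for Aurkb (adjusted p = 0.238). For each gene these arrays held the highest control values, so leaving them out had to shrink the difference. Of the genes that serve the anaphase-promoting complex, Cdc20, its activator, differed by -0.64 ± 0.085 SE (adjusted p = 6.39e-05) and Ube2c, its ubiquitin-conjugating enzyme, by -0.61 ± 0.089 SE (adjusted p = 0.000148). Top2a, the topoisomerase that untangles sister chromatids, had 7.36, 7.45 and 7.63 in Mef2c shRNA arrays, against 8.1, 8.33 and 8.54 in control arrays (difference -0.83 ± 0.074 SE, adjusted p = 1.06e-06, 56.4% of control). The groups of Cdc20, Ube2c and Top2a did not overlap.

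**Figure D3:**
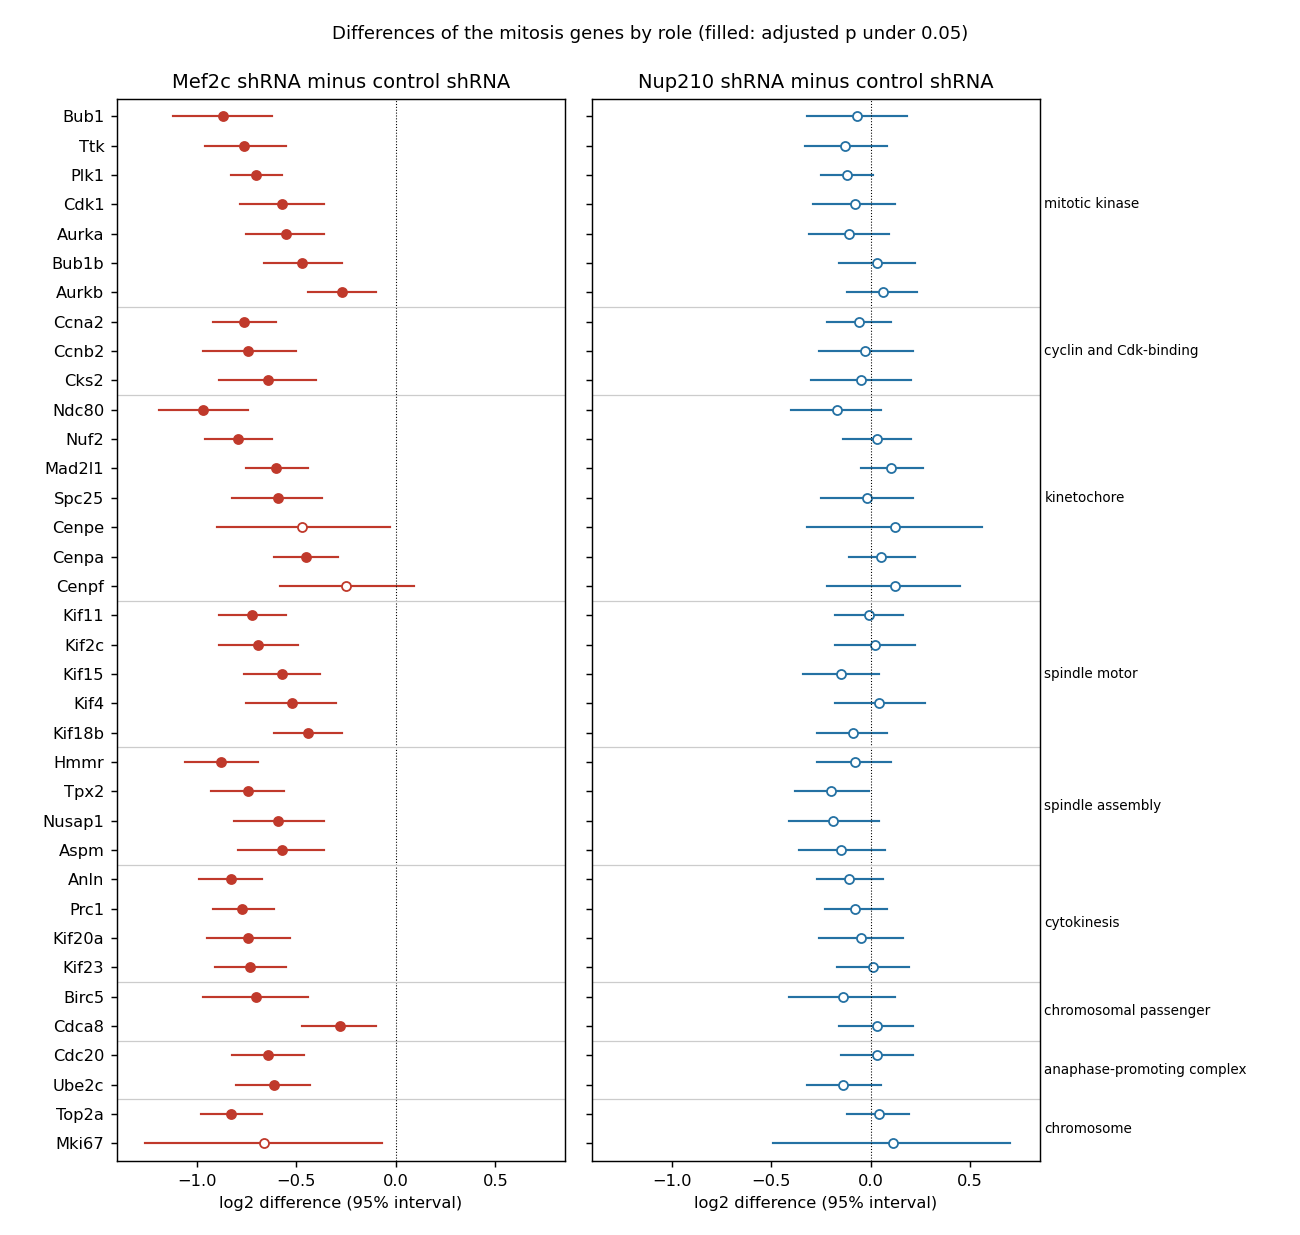
Log2 differences of the 36 mitosis genes by role, Mef2c shRNA minus control shRNA on the left and Nup210 shRNA minus control shRNA on the right; points are limma estimates, lines their 95% intervals, and filled points have an adjusted p under 0.05. On the left 33 points are filled and all lie below 0, while on the right 0 are filled.

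Mki67, the coat protein of mitotic chromosomes used as a proliferation marker, was not called although its mean difference was -0.66 (± 0.28 SE, limma adjusted p = 0.158). Its values were 6.75, 7.96 and 8.39 in Mef2c shRNA arrays, against 7.82, 8.42 and 8.94 in control arrays. Within groups its SD was 0.533, and that of Cenpe 0.39 and of Cenpf 0.297, beside 0.104 to 0.233 for the other 33 members. The spread was shared: over the 18 arrays, deviations from the group means correlated with those of Mki67 at 0.93 for Cenpe and 0.84 for Cenpf, and at -0.57 to 0.43 for the other 33. These are descriptions over arrays that share processing. The mean deviation of the other members correlated with Mki67 at -0.11, with Cenpe at -0.09 and with Cenpf at -0.08, and with each of the 33 at 0.53 to 0.89.

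The 20 genes outside the list whose deviations were most like those of Mki67, a set described after the values were seen, correlated with it at 0.95 or more. Among them, Rock1 was first, at 0.99. At 0.97 followed Nexn, an actin-binding protein of muscle, Smc4, a condensin subunit, Phip, Nipbl, the cohesin loader, Ccdc88a, Akap9 and Atrx. The 20 genes were picked for this likeness on the same arrays. Their mean is drawn below for its spread over arrays, and no difference between groups is taken from it. RNA quality as a source of the shared spread was not tested.

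**Figure D4:**
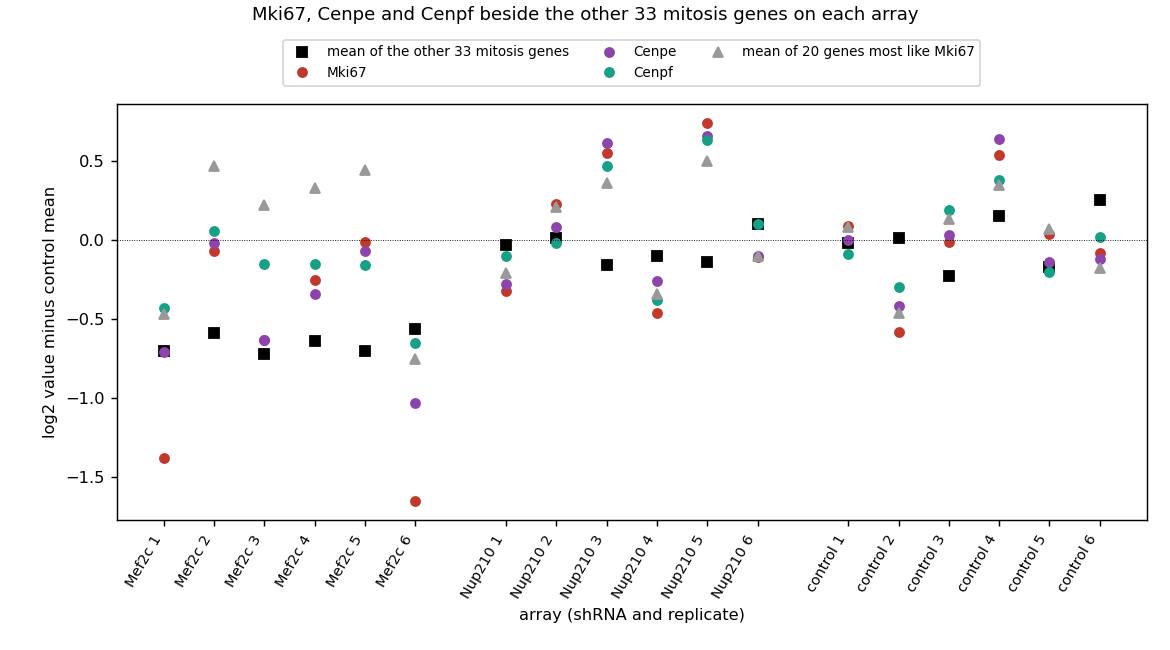
Log2 value minus control mean (vertical axis) on each array (horizontal axis) for Mki67, Cenpe and Cenpf (coloured circles), for the mean of the other 33 mitosis genes (squares) and for the mean of the 20 genes most like Mki67 (triangles). Mef2c shRNA arrays 1 and 6 are lowest for Mki67, whereas the mean of the other 33 lies between -0.72 and -0.56 in all 6 Mef2c shRNA arrays.

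Apart from those 3, the members shared much of their variation between arrays. The mean of the 36, relative to the control mean, was -0.72, -0.63 and -0.54 (lowest, median, highest) in Mef2c shRNA arrays and -0.12, -0.06 and 0.09 in Nup210 shRNA arrays, against -0.20, -0.03 and 0.23 in control arrays. The Mef2c shRNA arrays lay below all others, and the Nup210 shRNA arrays lay inside the control range. Among the control arrays, array 6 was the highest in 25 of the 36 members and array 4 in 11. Array 3 was the lowest in 23 and array 5 in 8. Nup210 shRNA array 6 was the highest of its group in 20 members. How often each array was highest or lowest over all genes was not counted, so an offset of whole arrays is not set apart here.

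For Nup210 shRNA the differences from control shRNA ran from -0.20 to 0.12 with a median of -0.05, beside 0.02 over all genes, and 22 of 36 were negative (61.1%, against 44.9% of all genes). The 95% intervals of the 33 members other than Mki67, Cenpe and Cenpf lay between -0.41 and 0.27, which bounds the difference of each but does not show that the groups were alike; over all 36 they reached from -0.49 to 0.70. The adjusted p-values were 0.209 to 0.972. Tpx2 was the 1 member with an unadjusted p under 0.05: it had 7.8, 7.98 and 8.24 in Nup210 shRNA arrays, against 7.98, 8.17 and 8.46 in control arrays (difference -0.20 ± 0.087 SE, limma adjusted p = 0.209), with overlapping groups. With the replicate number as a block, its adjusted p was 0.0177. By role, the spindle assembly factors had the lowest median, -0.17, and the chromosome genes the highest, 0.07.

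Set directly against Mef2c shRNA, 33 of 36 members were higher with Nup210 shRNA, beside 7.10% of all genes, and 0 were lower, beside 6.93%. The median difference was 0.59, beside 0.00 over all genes, and the called members ran from 0.31 to 0.86. In 28 members the lowest Nup210 shRNA array was above the highest Mef2c shRNA array, beside 4.50% of all genes. Top2a had 8.2, 8.36 and 8.47 in Nup210 shRNA arrays, against 7.36, 7.45 and 7.63 in Mef2c shRNA arrays (difference 0.86 ± 0.074 SE, limma adjusted p = 2.9e-07, 182% of the Mef2c shRNA level). Nuf2 had 7.87, 8.04 and 8.24 in Nup210 shRNA arrays, against 7.13, 7.25 and 7.34 in Mef2c shRNA arrays (difference 0.82 ± 0.081 SE, adjusted p = 1.42e-06). Both had separate groups. Not called were Cenpe (0.59, adjusted p = 0.0721), Cenpf (0.36, adjusted p = 0.16) and Mki67 (0.77, adjusted p = 0.0833), and the smallest called difference was that of Cdca8 (0.31, adjusted p = 0.0232). Leaving out Mef2c shRNA array 2 gave Cenpe an adjusted p of 0.0451, and leaving out control array 4 gave it 0.0494; Mki67 was called without Mef2c shRNA array 5 (adjusted p = 0.0467). With dim genes left out, Cenpe (adjusted p = 0.0366) and Mki67 (adjusted p = 0.0432) were both called. Without Nup210 shRNA arrays 2, 4 and 5, Aurkb (adjusted p = 0.092) and Kif18b (adjusted p = 0.0895) were not. Cdca8 was not called without Nup210 shRNA array 1 or 4 or Mef2c shRNA array 1 or 5 (adjusted p = 0.0506 to 0.0601).

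**Figure D5:**
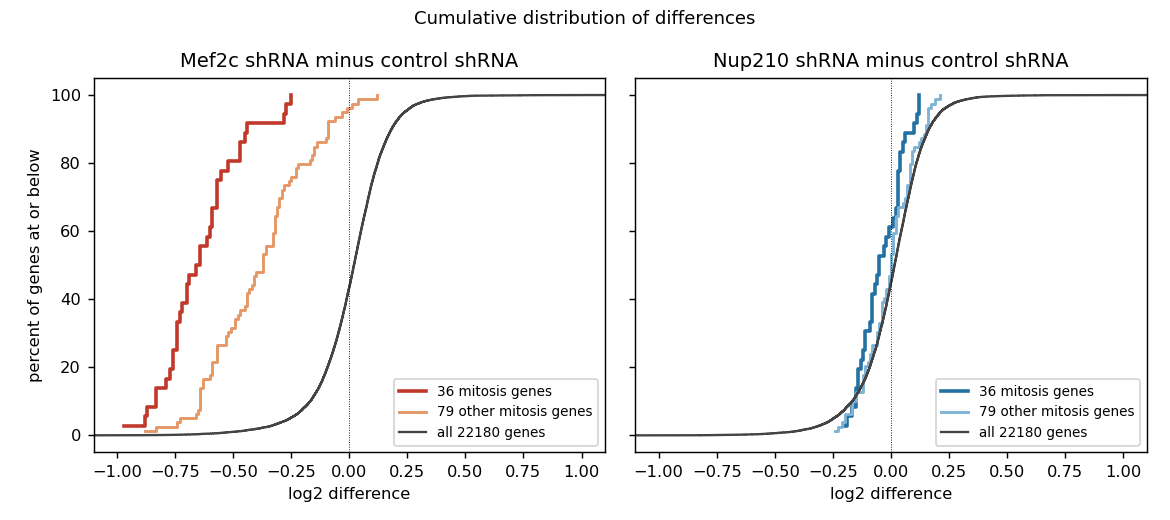
Percent of genes (vertical axis) with a log2 difference at or below the value on the horizontal axis, for Mef2c shRNA minus control shRNA (left) and Nup210 shRNA minus control shRNA (right), for the 36 mitosis genes, 79 other mitosis genes and all 22180 genes. On the left the curve of the 36 lies furthest left, with the 79 between it and all genes; on the right the 3 curves lie close to 0.

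Other genes of the cell cycle were read from lists. Of 87 further mitosis genes 79 were measured. With Mef2c shRNA 53 of these were lower, beside 6.42% of all genes, and 0 higher, beside 4.34%, with a median of -0.37. The largest differences were those of Ect2, an exchange factor needed for cytokinesis (-0.88, limma adjusted p = 9.69e-07), Shcbp1, a midbody protein (-0.83, adjusted p = 8.04e-06), Depdc1a (-0.74, adjusted p = 0.00186), Pbk, a mitotic kinase (-0.73, adjusted p = 5.97e-05), and Melk, a kinase of proliferating cells (-0.66, adjusted p = 0.000154). With Nup210 shRNA 0 of the 79 were called in either direction, beside 5.11% of all genes lower and 3.05% higher, and the median was 0.00. At an unadjusted limma p under 0.05, 8 were lower and 7 higher, near the shares of all genes, 10.3% and 9.91%. Against Mef2c shRNA, 62 were higher with Nup210 shRNA, beside 7.1% of all genes, with a median of 0.41. They were led by Ect2 (0.76, adjusted p = 2.13e-06) and Ckap2, a spindle protein (0.75, adjusted p = 7.08e-06).

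Beside the lists that follow, 6.42% of all genes were called lower and 4.34% higher with Mef2c shRNA, and 5.11% and 3.05% with Nup210 shRNA. In the S phase list, 18 of 26 measured genes were lower with Mef2c shRNA and 0 higher, with a median of -0.28. Mcm3 (-0.51, limma adjusted p = 0.000413) and Mcm2 (-0.48, adjusted p = 8.74e-06), subunits of the replicative helicase, and Cdc6, its loader (-0.48, adjusted p = 0.0013), had the largest differences. With Nup210 shRNA, 1 was lower, Mcm2 (-0.36, adjusted p = 0.000291), and 1 higher, Mcm7 (0.31, adjusted p = 0.00334). Of 16 regulators of cell cycle exit and entry, 3 were lower and 2 higher with Mef2c shRNA. Cdkn1c, a Cdk inhibitor of differentiating muscle, was lower (-0.64, adjusted p = 1.01e-06), as was Rbl1, a retinoblastoma relative (-0.37, adjusted p = 0.00105), and Btg2, an antiproliferative gene, was higher (0.22, adjusted p = 0.00917). With Nup210 shRNA 1 was lower, Cdkn2d (-0.29, adjusted p = 0.0156), and 3 were higher, among them Cdk6, a kinase of cell cycle entry (0.32, adjusted p = 0.0053), and Btg2 (0.26, adjusted p = 0.00448). Among the myotube markers 3 of 16 were lower with Mef2c shRNA, the sarcomere genes Actn2 (-0.67), Myh3 (-0.39) and Acta1 (-0.16). With Nup210 shRNA 5 were lower, Ckm (-0.39), Atp2a1 (-0.28), Casq2 (-0.24), Myh3 (-0.2) and Mymk (-0.14). Of 12 undifferentiated or reserve myoblast markers, 4 were lower with Mef2c shRNA, led by the Notch target genes Heyl (-0.46, adjusted p = 3.05e-05) and Hes1 (-0.33, adjusted p = 0.000315), and 1 was higher, Myf5, a myoblast transcription factor (0.33, adjusted p = 0.0192). With Nup210 shRNA 2 were higher, Myf5 (0.66, adjusted p = 9.48e-05) and Id3 (0.60, adjusted p = 0.0142), and 1 was lower, Sdc4 (-0.27, adjusted p = 9.9e-05). Their part in the mitosis gene result was not tested.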

How the data were processed

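RNA of 18 samples, 6 per shRNA group by their titles, was read on one-colour arrays. The deposited table holds log2 values, 1 per probe set and array, which the authors made with RMA and Partek, per the submitters' processing notes. No version, setting or build is named in those notes. RMA equalises probe intensities between arrays before probes are summarised into sets. Of 41345 probe sets, 23521 had 1 gene symbol in the platform annotation, 1814 several and 16010 none; for each of 22180 genes the singly named probe set that was brightest on average was taken. One limma fit (version 3.58.1, R 4.3.3) to the 18 arrays estimated a mean for each group without covariates (15 residual degrees of freedom), after a test on simulated data. Calls needed an adjusted p (Benjamini-Hochberg, over all genes) under 0.05. Named are all 36 members, the targeted genes, the largest 5 called genes per comparison among further mitosis genes and up to 3 in the S phase and cell cycle lists (fewer are printed for some comparisons). The members and lists were chosen with earlier results of these data known. Percent of control is the antilog of the log2 difference. Promoters come from RefSeq, and no other genome coordinates were used. The labels do not say what arrays with the same replicate number share, and the main fit did not treat them as pairs. Their deviations correlated at -0.18 to 0.22 between groups. The arrays' number limits the precision, no scan date was at hand and no batch was tested. The alternatives included the replicate number as a block, fewer groups or arrays, other normalizations, dim genes left out, other probe set rules, other priors, array weights and a stricter threshold.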

Additional observations from a re-analysis of the deposited data

Results flagged for a closer look

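Over the 36 mitosis genes and 3 groups, 108 sets of 6 arrays were looked at for a single array far from the rest of its group. In all, 2 were found. Chance gives about 1 in 20 sets, so 2 of 108 are not more than chance would give. Ccnb2 had a log2 value of 7.76 in Mef2c shRNA array 6, while the other 5 arrays of the group lay between 7.22 and 7.35. Cdc20 had 7.16 in Mef2c shRNA array 4, while the others lay between 7.29 and 7.36.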

How the results depend on the processing

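The count of members called lower with Mef2c shRNA against control shRNA (33) ran from 31 to 33, both over 12 other settings and over 18 fits that each left out 1 array. The median difference (-0.65) ran from -0.67 to -0.55 over the settings and from -0.70 to -0.60 over those fits. Of the 33 calls, 31 held under all 30 alternatives, all but those of Aurkb and Cdca8. With the replicate number as a block, 1 member was called lower with Nup210 shRNA against control shRNA (Tpx2, -0.20, adjusted p = 0.0177) in place of 0; every other setting gave 0, as did each fit that left out 1 array. The block changed the side of the threshold of no other member. The median for Nup210 shRNA against control shRNA (-0.05) ran from -0.07 to 0.06 over the other settings and from -0.10 to 0.02 over the fits without 1 array, so its sign is not settled. Against Mef2c shRNA, the count of members higher with Nup210 shRNA (33) ran from 30 to 35 and, without 1 array, from 32 to 34, with medians (0.59) from 0.58 to 0.61 and from 0.57 to 0.64. There 29 of the 33 calls held under all alternatives; Cenpe was called in 3 of them and Mki67 in 2. Same-numbered arrays deviated together only weakly. Still, 12 of 18 arrays correlated best with an array of their own number. How many unrelated numbers would give was not worked out. The count is at most a hint of pairing from the data and not the design, and the main fit ignores any such pairing. Signal near background limits Birc5 and the Nup210 probe set. Kif15 also came near it, with a Mef2c shRNA mean of 5.62 and a lowest array of 5.38, beside the receptor guide of 5.47.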
